A study of Homo sapiens with 12 samples.

Results

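The genes described here encode kinesins, tubulins and the subunits of augmin. They were chosen by symbol alone, as every gene whose name starts with KIF and a digit, with TUBA, TUBB or TUBG, or with HAUS and a digit, leaving out names that end in P or in P and digits and names with a hyphen. The rule found 68 genes among the 27968 of each library: 39 kinesins, 21 tubulins and 8 augmin subunits. It left out 9 names for their ending, among them 5 gamma-tubulin complex proteins (TUBGCP2 to TUBGCP6), and 3 for a hyphen. From textbook knowledge the kinesins were divided into 13 mitotic motors, 15 transport motors and 11 of cilia and other roles, and the tubulins into 10 alpha, 9 beta and 2 gamma genes.

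The series profiled gene expression by RNA sequencing in cancer cells with and without an extracellular matrix. The cells were of human lines, A549 from lung cancer and MDA-MB-231 from breast cancer. Each line was grown in 3D within Matrigel, which is an extract of basement membrane, and in 2D in flat culture, with 3 libraries in each of the 4 groups (A549 3D, A549 2D, MDA-MB-231 3D and MDA-MB-231 2D). RNA was taken on day 4 in 3D and at about 80% confluence in 2D, where the medium was DMEM with 10% FBS, and libraries came from ribosome-depleted total RNA. The labels name no genetic change in either line.

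Microtubules are polymers of paired alpha- and beta-tubulin, grown from templates that contain gamma-tubulin. Kinesins are ATP-driven motors that walk along microtubules or take their ends apart; some are made mainly in dividing cells, where they build and divide the spindle, while others carry vesicles, mitochondria or messenger RNA in non-dividing cells as well. Augmin brings the gamma-tubulin ring complex to the side of existing microtubules, so that new ones branch from them inside the spindle.

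Total expected counts per library, that is reads assigned to genes, ran from 5609327 to 28171901, and both ends of this range were A549 3D libraries. Levels are given as CPM (counts scaled to library size, after TMM scaling), in the order of replicates 1 to 3, and changes as log2 fold changes of 3D over 2D with their SE, with p-values adjusted over the 15304 genes tested. Whether a group's libraries stem from separate cultures is not stated, and p-values therefore cover only the spread between these libraries, which may be technical. The spread was wider in A549 3D, with a biological coefficient of variation of 0.180, than in A549 2D (0.0377), MDA-MB-231 3D (0.0563) or MDA-MB-231 2D (0.0538). Replicate 2 of A549 3D stood apart by base composition: it was the lowest of the 3 A549 3D libraries for 27 of the 34 members with a transcript GC content of 45% or more and log2 CPM averaging 1 or more, and for 0 of the 14 below that bound. Without it, 7 members passed as higher and 43 as lower in A549. Mean fragment length was 133.7 to 141 bases in A549 3D against 176.5 to 187.3 bases in A549 2D, and 181.4 to 188.1 bases in MDA-MB-231 3D against 208.3 to 216.8 bases in MDA-MB-231 2D. Because of this, changes were also taken from a fit in which each library's trend with transcript GC content and with effective length was removed, here called the GC-and-length fit, which was chosen after the data were seen. In that fit the median log2 fold change of all genes tested was -0.105 in A549 and 0.0617 in MDA-MB-231, against 0.0314 and 0 in the fit reported. Lung lineage markers, among them the surfactant genes SFTPA1, SFTPB and SFTPC, summed to no more than 1.88 CPM in any A549 library. A list of 7 breast lineage markers summed to 82.11 to 90.45 CPM in MDA-MB-231 3D and 47.0 to 53.72 CPM in MDA-MB-231 2D. That list summed to 99.42 to 122.3 CPM in A549 3D and 71.08 to 77.06 CPM in A549 2D. Within it, the hormone receptor genes ESR1 and PGR averaged 0.0540 and 0.120 CPM in MDA-MB-231 3D, against 0.262 and 0.129 CPM in MDA-MB-231 2D. Of the 3 genes of that list that were tested, 2 were higher in MDA-MB-231 3D, among them GATA3 at 0.87, and 1 was lower. Over all genes tested the shares were 33.4% and 34.2%. In the GC-and-length fit 1 was higher and 1 lower, and GATA3 did not pass.

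In Matrigel, A549 cells held less messenger RNA for most of this machinery, while MDA-MB-231 cells were divided. Of the 57 genes with enough reads to be tested, 51 passed in A549, and the background over all genes tested was 65.6%. Among them 43 were lower in 3D, against a background of 31.5%, and 8 were higher, against 34.1%. The median log2 fold change was -0.91. In MDA-MB-231, 34 passed (background 67.6%), with 17 higher (background 33.4%) and 17 lower (background 34.2%). There, KIF12, KIF26A, KIF1A and KIF5A had no count in any library, and the other 53 genes had a median of 0.10. The shares of higher and lower calls in MDA-MB-231 depended on the scale, with 6 higher and 27 lower on the log2(TPM + 1) scale, where the median of all genes was itself -0.252 (and -0.376 in A549). The backgrounds of the reported fit also apply to the counts by role and by list below. They were 34.1% higher and 31.5% lower in A549, and 33.4% higher and 34.2% lower in MDA-MB-231.

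The change in A549 minus that in MDA-MB-231 was tested for itself. It passed for 35 of 57 genes, against 56.1% of all genes, and was below 0 for 27 (background 26.7%) and above 0 for 8 (background 29.3%). By calls in each line, 16 genes were lower in 3D in both lines (background 16.1%) and 4 were higher in both (background 15.3%; HAUS4, KIF13B, KIF9 and TUBAL3). A set of 12 was lower in A549 and higher in MDA-MB-231 (background 7.21%): HAUS7, KIF1C, KIF21B, KIF3B, KIF3C, KIF4A, TUBA1A, TUBA1C, TUBB2A, TUBB3, TUBB4B and TUBB6. In the GC-and-length fit 7 of these passed as higher in MDA-MB-231 and 5 did not (KIF1C, TUBA1C, TUBB2A, TUBB4B and TUBB6). Of the 5, TUBB4B and TUBB6 passed as lower, and TUBB2A was below 0 without passing. The difference between lines passed in that fit and was below 0 for all 12. KIF27 alone was higher in A549 and lower in MDA-MB-231 (background 6.97%). With GC and length trends removed the counts were 13 lower in both, 4 higher in both, 14 lower in A549 and higher in MDA-MB-231, and 1 the other way. Shares of all genes in these classes are not given for that fit. Its medians over all genes were themselves -0.105 in A549, 0.0617 in MDA-MB-231 and -0.183 for the difference between lines.

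**Figure D1:**
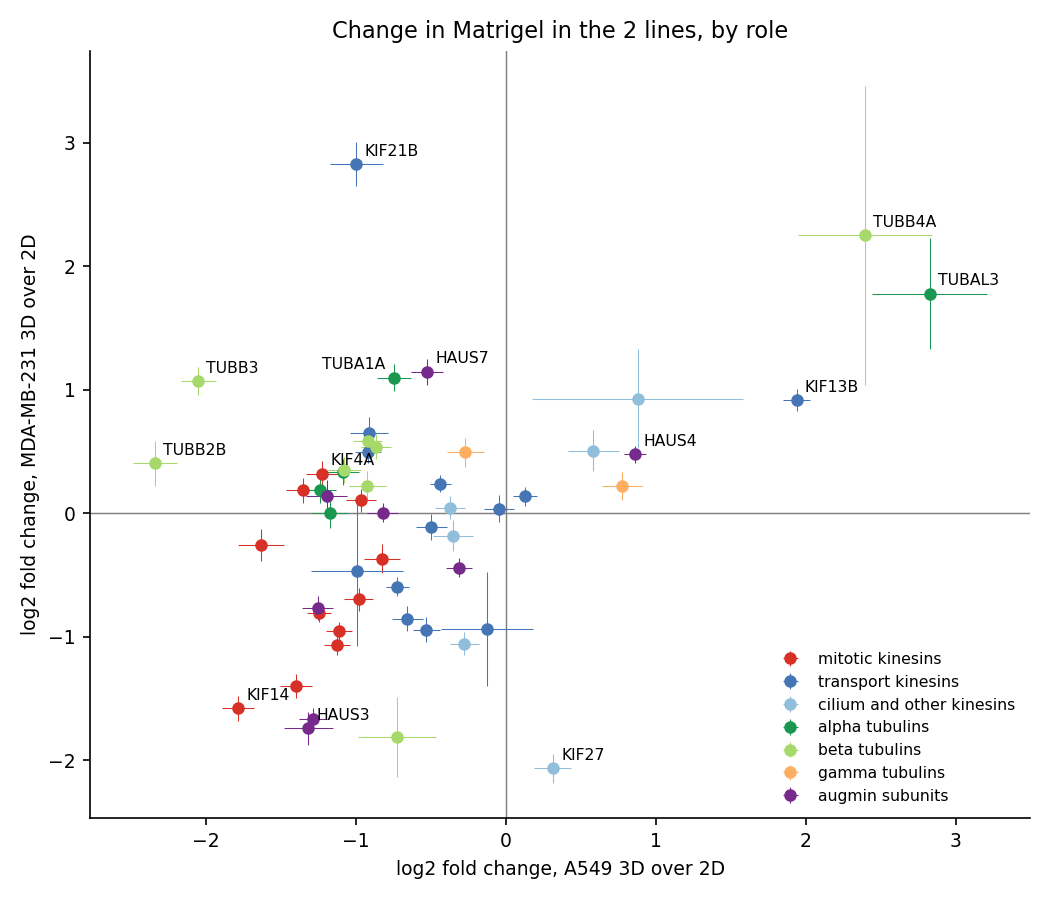
Log2 fold change of 3D over 2D in A549 (horizontal) against that in MDA-MB-231 (vertical) for the 53 tested genes with counts in both lines, coloured by role; bars are SE. Most points lie left of the vertical line (41 of the 53 passed as lower in A549 3D), while they spread above and below the horizontal line; on a TPM scale or with GC and length trends removed some of the points near the horizontal line change side.

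Mitotic kinesins, as grouped here, fell in A549 without exception among those tested. KIF2A, which also acts at spindle poles, was counted with the kinesins of other roles. It was at -0.28 in A549 and did not pass in the GC-and-length fit (-0.10, adjusted p = 0.269). All 11 tested genes of the mitotic group passed as lower (background 31.5%), with a median of -1.22. KIF2B, which had no count in any library, and KIF4B, at no more than 0.251 CPM, were not tested. The count of 11 was the same under every alternative setting, including the GC-and-length fit (median -1.10). Proliferation markers moved with them: 9 of 10 were lower in A549 3D (background 31.5%). Their summed level was 1488 to 1733 CPM in A549 3D against 3074 to 3274 CPM in A549 2D. The exception was MKI67, the Ki-67 antigen of cycling cells, at a mean of 153 CPM in A549 3D and 119 CPM in A549 2D (log2 fold change 0.37, adjusted p = 0.0529). None of the 10 markers was at 0, and their part in the fall was not tested. In bulk RNA, fewer dividing cells and less RNA per dividing cell cannot be told apart.

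KIF14, which works at the midbody in cytokinesis, had 37.1, 44.0 and 39.0 CPM in A549 3D, against 142, 139 and 129 CPM in A549 2D (log2 fold change -1.78 ± 0.10, adjusted p = 8.96e-10). KIF18B, which binds the tips of astral microtubules, had 15.3, 7.42 and 14.8 CPM in A549 3D, against 41.4, 41.7 and 40.8 CPM in A549 2D (log2 fold change -1.63 ± 0.15, adjusted p = 2.01e-07). KIF20B, a cytokinesis motor, had 34.6, 41.2 and 31.5 CPM in A549 3D, against 94.6, 98.3 and 84.5 CPM in A549 2D (log2 fold change -1.40 ± 0.10, adjusted p = 1.28e-08). The 3D libraries of all 3 genes lay below every 2D library, and replicate 2 of A549 3D was the lowest for KIF18B but the highest for KIF14 and KIF20B. KIF2C, a depolymerase that corrects kinetochore attachments, had 26.8, 30.3 and 40.4 CPM in A549 3D, against 86.1, 85.5 and 84.3 CPM in A549 2D (log2 fold change -1.35 ± 0.11, adjusted p = 5.15e-08). KIF4A, a chromosome-arm motor that narrows the anaphase midzone, had 43.6, 40.8 and 57.8 CPM in A549 3D, against 119, 114 and 107 CPM in A549 2D (log2 fold change -1.22 ± 0.11, adjusted p = 7.93e-08), with its near copy KIF4B making the split of reads between them uncertain. KIF18A, which dampens chromosome movement at the metaphase plate, had 55.4, 52.5 and 50.1 CPM in A549 3D, against 114, 118 and 111 CPM in A549 2D (log2 fold change -1.12 ± 0.08, adjusted p = 1.57e-08). Again no 3D library reached the 2D range. The other 5 fell by 0.83 (KIF20A, of cytokinesis) to 1.25 (KIF23, of the central spindle) on the log2 scale, with KIF22, a chromosome-binding motor, at -0.96 ± 0.10, KIF11, the motor that pushes spindle poles apart, at -0.98 ± 0.09, and its backup KIF15 at -1.11 ± 0.09.

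In MDA-MB-231, 7 mitotic kinesins were lower in 3D (background 34.2%), 1 was higher (background 33.4%) and 3 did not pass, with a median of -0.70. KIF14 had 56.6, 42.6 and 45.3 CPM in MDA-MB-231 3D, against 138, 139.9 and 152 CPM in MDA-MB-231 2D (log2 fold change -1.58 ± 0.10, adjusted p = 3.86e-09), and in the GC-and-length fit its value was -0.37. KIF20B had 64.8, 60.7 and 60.0 CPM in MDA-MB-231 3D, against 162, 149.9 and 177 CPM in MDA-MB-231 2D (log2 fold change -1.40 ± 0.10, adjusted p = 8.51e-09), but 0.04 in the GC-and-length fit. KIF18A had 42.9, 35.8 and 40.4 CPM in MDA-MB-231 3D, against 77.2, 84.0 and 87.8 CPM in MDA-MB-231 2D (log2 fold change -1.07 ± 0.08, adjusted p = 2.93e-08), and 0.22 in that fit. None of these 3D libraries overlapped the 2D libraries. KIF4A was the member called higher, with 159, 167 and 168 CPM in MDA-MB-231 3D, against 128, 128 and 139.6 CPM in MDA-MB-231 2D (log2 fold change 0.32 ± 0.10, adjusted p = 0.00973), although it was at -0.09 on the log2(TPM + 1) scale and at 0.70 in the GC-and-length fit. KIF2C did not pass, with 257, 282 and 282 CPM in MDA-MB-231 3D, against 242, 244 and 236 CPM in MDA-MB-231 2D (log2 fold change 0.19 ± 0.10, adjusted p = 0.12). KIF18B did not pass either, with 55.5, 59.5 and 59.5 CPM in MDA-MB-231 3D, against 68.4, 78.4 and 62.2 CPM in MDA-MB-231 2D (log2 fold change -0.26 ± 0.13, adjusted p = 0.0918). In the GC-and-length fit both passed, KIF2C as higher (0.23, adjusted p = 0.02) and KIF18B as lower (-0.67, adjusted p = 1.04e-06). The cultures did not overlap for either gene. With GC and length trends removed, 3 mitotic kinesins were lower and 4 higher, with a median of 0.04. Proliferation markers divided in the same way, 6 lower and 3 higher as reported (backgrounds 34.2% and 33.4%) and 2 lower and 6 higher in that fit. Their summed level was 2990 to 3143 CPM in MDA-MB-231 3D against 3872 to 4009 CPM in MDA-MB-231 2D.

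The difference between lines was below 0 and passed for 6 mitotic kinesins (background 26.7%), and for all 11 in the GC-and-length fit. In that fit the median difference over all genes was itself -0.183. It was -1.55 ± 0.15 for KIF4A, -1.54 ± 0.15 for KIF2C, -1.37 ± 0.20 for KIF18B and -1.07 ± 0.14 for KIF22 (adjusted p from 4.02e-07 to 3.39e-05). For KIF14 it was -0.20 ± 0.14 (adjusted p = 0.24), a value that became -1.23 in the GC-and-length fit.

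**Figure D2:**
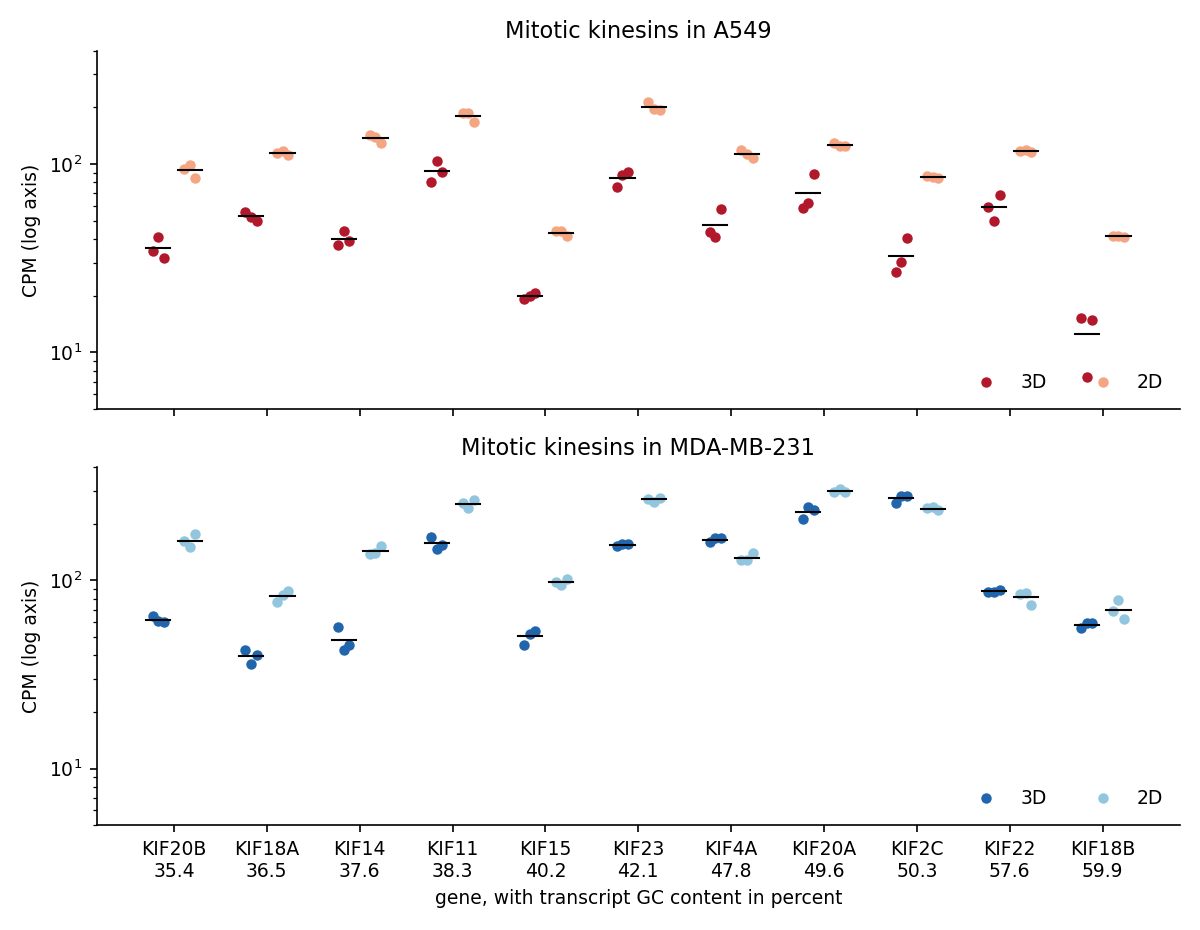
Level of the 11 tested mitotic kinesins in CPM (log axis) in every library of A549 (top) and MDA-MB-231 (bottom), 3D left and 2D right of each gene; lines are means of 3 libraries and genes run from low to high transcript GC content, printed under each name. In A549 all 3D points lie below the 2D points of the same gene; in MDA-MB-231 the gap is open for the 6 genes with GC of 42.1% or less and small or turned round for the other 5, and with GC and length trends removed 4 genes were higher in MDA-MB-231 3D.

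Promoters of mitotic kinesins are known for the CHR element, bound by the DREAM and B-MYB complexes of the cell cycle, and for the CCAAT box, bound by NF-Y. RefSeq promoter windows on GRCh38.p14 (the deposited tables used hg19) were searched over the 250 bases before each start site, on both strands, for TTTGAA and TTCGAA (CHR), for CCAAT, and for TTTGGCGC, TTTCCCGC, TTTGCCGC and TTTCGCGC (E2F-type); 62 of the 68 genes had a window. A CHR match lay in 6 of 13 mitotic kinesins (46.2%), in 5 of 49 other members (10.2%) and in 17.2% of the 27305 genes with a window. CCAAT lay in 10 (76.9%), 22 (44.9%) and 37.0%, and both together in 5 (38.5%), 4 (8.16%) and 6.24%. An E2F-type match lay in 1 mitotic kinesin, KIF15, in 2 other members and in 3.4% of all. Of the 5 with both elements, KIF11, KIF18A, KIF23 and KIF4A are shown as examples that fell in A549 and hold both elements close before the start site. KIF22, the fifth, also fell and is not shown. In 1 of its 2 windows the CCAAT box began 66 and the CHR 27 bases before the start site. Capitals mark the CCAAT box and the CHR on either strand.
KIF11, chr10:92592880-92593129, plus strand: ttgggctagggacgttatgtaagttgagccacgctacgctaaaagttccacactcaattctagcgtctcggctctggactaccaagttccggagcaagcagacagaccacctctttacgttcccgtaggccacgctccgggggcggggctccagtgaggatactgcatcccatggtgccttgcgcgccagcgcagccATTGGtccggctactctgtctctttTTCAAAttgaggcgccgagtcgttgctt
KIF18A, chr11:28108157-28108406, minus strand: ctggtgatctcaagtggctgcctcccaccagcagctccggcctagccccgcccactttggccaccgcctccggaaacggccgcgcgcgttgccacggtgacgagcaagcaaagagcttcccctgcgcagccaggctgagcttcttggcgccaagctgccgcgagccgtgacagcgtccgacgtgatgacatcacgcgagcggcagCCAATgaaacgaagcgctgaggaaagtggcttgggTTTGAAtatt
KIF23, chr15:69414099-69414348, plus strand: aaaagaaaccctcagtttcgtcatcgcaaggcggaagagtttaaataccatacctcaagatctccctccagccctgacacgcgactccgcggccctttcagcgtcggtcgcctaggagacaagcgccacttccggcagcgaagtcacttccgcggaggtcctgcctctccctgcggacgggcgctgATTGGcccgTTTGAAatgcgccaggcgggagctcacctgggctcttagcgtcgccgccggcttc
KIF4A, chrX:70289854-70290103, plus strand: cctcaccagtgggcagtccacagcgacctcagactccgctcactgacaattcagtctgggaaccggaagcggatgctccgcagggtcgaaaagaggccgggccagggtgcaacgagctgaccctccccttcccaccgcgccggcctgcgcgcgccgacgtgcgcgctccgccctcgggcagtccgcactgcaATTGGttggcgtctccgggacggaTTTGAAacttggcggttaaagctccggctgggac
The CCAAT box began 53, 45, 64 and 58 bases before the start site in KIF11, KIF18A, KIF23 and KIF4A, and the CHR 28, 10, 55 and 34 bases before it. KIF2C, which fell in A549 by 1.35 on the log2 scale, had none of the 3 kinds of match in its window. The letters are a description of these windows, and no binding was measured.

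Transport kinesins were lower in A549 3D in 10 of 15 genes (background 31.5%) and higher in 1 (background 34.1%), with a median of -0.66. In MDA-MB-231, 5 were higher, near the background of 33.4%, and 3 lower (background 34.2%). There 2 had no counts, and the 13 others had a median of 0.04. The split was 2 higher and 7 lower on the log2(TPM + 1) scale, and 9 higher and 1 lower in the GC-and-length fit. KIF13B, which carries phosphoinositide and membrane cargo, was the rise in A549, with 105, 104 and 118 CPM in A549 3D, against 27.5, 28.0 and 30.2 CPM in A549 2D (log2 fold change 1.94 ± 0.09, adjusted p = 5.86e-11). It also rose in MDA-MB-231, with 47.5, 47.6 and 45.5 CPM in MDA-MB-231 3D, against 23.8, 23.0 and 27.6 CPM in MDA-MB-231 2D (log2 fold change 0.91 ± 0.09, adjusted p = 2.55e-07). No library of one culture reached the range of the other in either line, and the rise was larger in A549 by 1.02 ± 0.12 (adjusted p = 5.11e-06).

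KIF21B, a brake on microtubule growth known from neurons and lymphocytes, went opposite ways. It had 3.26, 2.34 and 3.47 CPM in A549 3D, against 5.14, 6.54 and 7.53 CPM in A549 2D (log2 fold change -0.997 ± 0.18, adjusted p = 0.000146). In the other line, KIF21B had 7.91, 8.96 and 8.49 CPM in MDA-MB-231 3D, against 1.31, 1.08 and 1.17 CPM in MDA-MB-231 2D (log2 fold change 2.83 ± 0.18, adjusted p = 3.86e-09). In both lines the cultures were apart, and the difference between lines was -3.82 ± 0.25 (adjusted p = 9.29e-09). Its relative KIF21A had 64.1, 86.0 and 73.3 CPM in A549 3D, against 104, 109.6 and 108 CPM in A549 2D (log2 fold change -0.53 ± 0.09, adjusted p = 8.3e-05). In MDA-MB-231, KIF21A had 12.2, 11.6 and 11.3 CPM in MDA-MB-231 3D, against 22.2, 22.2 and 22.9 CPM in MDA-MB-231 2D (log2 fold change -0.94 ± 0.10, adjusted p = 8.52e-07), a fall that was at 0.11 in the GC-and-length fit. The level was lower throughout MDA-MB-231 than in any A549 library.

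KIF1C, a motor of vesicles and messenger RNA, had 159.6, 139 and 179 CPM in A549 3D, against 289, 299 and 318 CPM in A549 2D (log2 fold change -0.92 ± 0.09, adjusted p = 2.31e-07). It had 238, 228 and 237 CPM in MDA-MB-231 3D, against 178, 162 and 159.5 CPM in MDA-MB-231 2D (log2 fold change 0.49 ± 0.09, adjusted p = 0.000114; 0.10 with adjusted p = 0.274 in the GC-and-length fit). KIF3C, a partner of KIF3A in heterotrimeric kinesin, had 45.8, 28.9 and 48.1 CPM in A549 3D, against 75.5, 78.7 and 83.2 CPM in A549 2D (log2 fold change -0.91 ± 0.13, adjusted p = 1.16e-05). It had 48.6, 48.3 and 47.2 CPM in MDA-MB-231 3D, against 29.4, 32.1 and 30.2 CPM in MDA-MB-231 2D (log2 fold change 0.65 ± 0.12, adjusted p = 0.000236; 0.39 in the GC-and-length fit). For both genes the cultures did not overlap, and the differences between lines were -1.41 ± 0.12 and -1.56 ± 0.18 (adjusted p = 1.88e-07 and 2.54e-06). On the log2(TPM + 1) scale neither rise in MDA-MB-231 passed, with KIF1C at 0.08 and KIF3C at 0.23. The partners diverged in MDA-MB-231, where KIF3B was at 0.24 ± 0.07 (-0.17 on the log2(TPM + 1) scale, 0.62 in the GC-and-length fit) and KIF3A at -0.85 ± 0.10 (0.28 in the GC-and-length fit); in A549 they were at -0.44 ± 0.07 and -0.66 ± 0.10.

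KIF5B, the ubiquitous conventional kinesin heavy chain, had the highest TPM, a level per transcript length, of all kinesins in A549, at 52.1 ± 2.78 TPM in 3D and 126 ± 2.16 TPM in 2D. Its change was -0.72 ± 0.08 in A549 and -0.59 ± 0.08 in MDA-MB-231, and 0.43 in MDA-MB-231 in the GC-and-length fit. In MDA-MB-231, KIF2C had 170.3 ± 6.43 TPM in 3D and 200.1 ± 2.27 TPM in 2D, KIF20A had 117 ± 7.52 and 202 ± 3.70 TPM, and KIF5B 95.7 ± 4.36 and 192 ± 10.4 TPM. The 3D levels of these 3 genes were apart, while their 2D levels differed by less than the SD of KIF5B. The neuronal heavy chains KIF5A and KIF5C reached at most 1.12 and 1.66 CPM. KIF1A, an axonal motor, and KIF17, a dendritic one, did not exceed 1.24 CPM. KIF1B and KIF16B, of synaptic vesicle precursors and early endosomes, did not pass in either line, and their changes lay between -0.05 ± 0.10 and 0.14 ± 0.08, although in the GC-and-length fit they were at 0.55 and 0.61 in MDA-MB-231 and passed. KIF13A, an endosome motor, was at -0.50 ± 0.11 in A549 and -0.11 ± 0.10 in MDA-MB-231, where it did not pass as reported and passed as higher in the GC-and-length fit (0.38, adjusted p = 0.00255).

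The kinesins of cilia and other roles had no common direction. In A549, 3 of 8 tested genes were higher and 4 lower (backgrounds 34.1% and 31.5%). In MDA-MB-231, 1 was higher and 2 lower (backgrounds 33.4% and 34.2%), with 2 at 0. Ciliated cell markers summed to 10.7 to 18.8 CPM in A549 3D against 6.35 to 7.68 CPM in A549 2D, and to 11.9 to 14.7 CPM in MDA-MB-231 3D against 12.02 to 13.4 CPM in MDA-MB-231 2D, with FOXJ1, the master regulator of motile cilia, at means of 0.139 CPM in A549 3D, against 0.237 CPM in A549 2D, and 0.0183 CPM in MDA-MB-231 3D, against 0 in MDA-MB-231 2D. KIF12, a kinesin of kidney and bile duct epithelia, had 13.8, 11.1 and 13.3 CPM in A549 3D, against 3.65, 4.41 and 4.05 CPM in A549 2D (log2 fold change 1.67 ± 0.16, adjusted p = 2.46e-06). The 2 cultures did not overlap, and every MDA-MB-231 library had 0 counts. Taking a floor of 3 counts over the MDA-MB-231 group, it was higher in A549 than in MDA-MB-231 by at least 212-fold in 3D, and in 2D by at least 92.8-fold.

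KIF27, related to the Hedgehog and cilium kinesin KIF7, had 6.84, 5.35 and 6.74 CPM in MDA-MB-231 3D, against 26.9, 23.5 and 28.1 CPM in MDA-MB-231 2D (log2 fold change -2.06 ± 0.12, adjusted p = 1.58e-09; -1.07 in the GC-and-length fit). In A549 it had 12.5, 15.6 and 13.02 CPM in A549 3D, against 10.1, 11.1 and 11.3 CPM in A549 2D (log2 fold change 0.31 ± 0.12, adjusted p = 0.0357), a small rise that turned to -0.13 on the log2(TPM + 1) scale. Leaving out 1 library ended this call for 6 of the 12 libraries, namely A549 2D replicates 1, 2 and 3, A549 3D replicates 2 and 3 and MDA-MB-231 3D replicate 1 (0.24 to 0.35, adjusted p from 0.0516 to 0.129). The difference between lines was 2.38 ± 0.17 (adjusted p = 2.41e-08), and the 3D and 2D libraries were apart in both lines. KIF2A, a depolymerase of neurons and spindle poles, had 73.1, 62.5 and 58.5 CPM in A549 3D, against 77.2, 82.99 and 73.8 CPM in A549 2D (log2 fold change -0.28 ± 0.10, adjusted p = 0.0197). KIF2A had 72.0, 60.8 and 60.8 CPM in MDA-MB-231 3D, against 132, 129 and 139.8 CPM in MDA-MB-231 2D (log2 fold change -1.06 ± 0.09, adjusted p = 1.07e-07). The 3D libraries lay below the 2D libraries in both lines; in the GC-and-length fit the values were -0.10 and -0.22. The fall of KIF2A in A549 did not pass without A549 2D replicate 2 (-0.24, adjusted p = 0.0776) or without A549 3D replicate 3 (-0.20, adjusted p = 0.095). KIF9, of motile cilia, had 5.89, 6.25 and 6.19 CPM in A549 3D, against 4.53, 3.88 and 3.82 CPM in A549 2D (log2 fold change 0.58 ± 0.17, adjusted p = 0.00651). KIF9 had 4.53, 5.14 and 4.27 CPM in MDA-MB-231 3D, against 3.16, 2.62 and 4.04 CPM in MDA-MB-231 2D (log2 fold change 0.51 ± 0.16, adjusted p = 0.0126), higher in 3D in both lines without overlap. On the log2(TPM + 1) scale KIF9 was at 0.07 in each line and did not pass, and its rise in MDA-MB-231 did not pass without MDA-MB-231 2D replicate 2 (0.37, adjusted p = 0.0638) or MDA-MB-231 3D replicate 2 (0.42, adjusted p = 0.07). KIF24, which limits cilium growth at the mother centriole, had 15.9, 14.4 and 16.2 CPM in A549 3D, against 21.8, 20.4 and 18.7 CPM in A549 2D (log2 fold change -0.37 ± 0.10, adjusted p = 0.00393). KIF24 had 19.1, 21.0 and 20.2 CPM in MDA-MB-231 3D, against 19.4, 21.1 and 18.0 CPM in MDA-MB-231 2D (log2 fold change 0.05 ± 0.09, adjusted p = 0.687), with overlapping cultures, and in the GC-and-length fit it passed as higher (0.25, adjusted p = 0.0121). KIF7 was at -0.35 ± 0.13 in A549 and, not passed, -0.18 ± 0.12 in MDA-MB-231, where it was -0.62 and passed in the GC-and-length fit, and KIF26A, a kinesin without motor activity, fell by 1.63 in A549. KIF26B did not pass in either line, and KIF6, KIF19 and KIF25 were too low to test, at no more than 0.577 CPM.

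**Figure D3:**
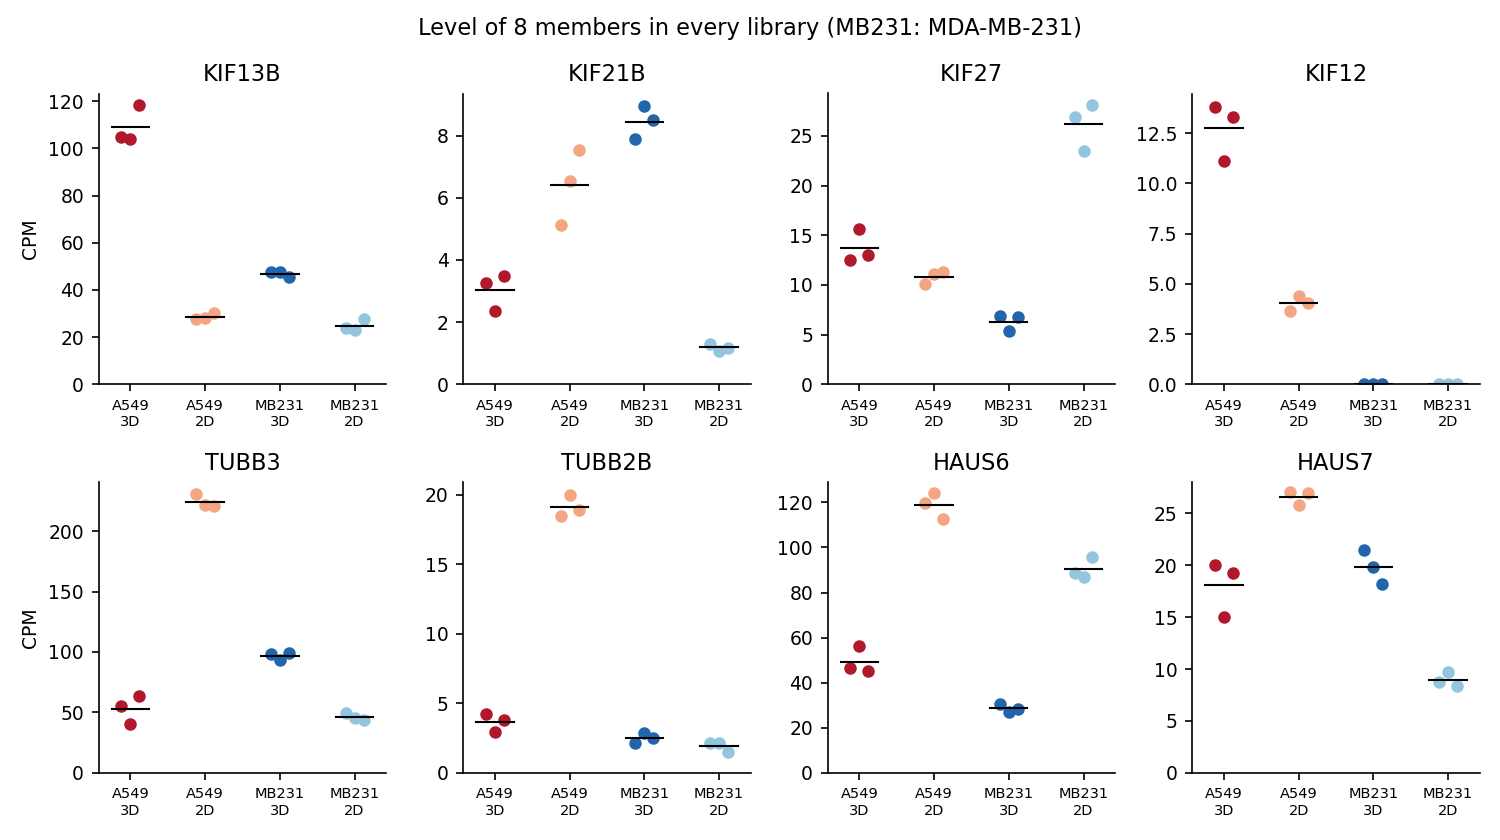
Level of KIF13B, KIF21B, KIF27, KIF12, TUBB3, TUBB2B, HAUS6 and HAUS7 in CPM in each of the 12 libraries, with A549 3D, A549 2D, MDA-MB-231 3D and MDA-MB-231 2D from left to right; each point is a library, lines are means of 3, and every vertical axis starts at 0. KIF13B is higher and HAUS6 lower in 3D in both lines, KIF21B, TUBB3 and HAUS7 are lower in A549 3D and higher in MDA-MB-231 3D, and KIF12 is at 0 in MDA-MB-231; the small A549 rise of KIF27 reverses on a TPM scale.

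Tubulins as a family fell in A549. Of 13 tested alpha and beta genes 11 were lower (background 31.5%) and 2 higher (background 34.1%), with a median of -0.92. The summed TPM was 1009, 826 and 1333 for alpha tubulins in A549 3D against 3486, 3491 and 3568 in A549 2D. Beta tubulins summed to 545, 390.5 and 661 TPM in A549 3D against 1573, 1536 and 1632 TPM in A549 2D. On the log2(TPM + 1) scale the median change of all genes in A549 was itself -0.376. In MDA-MB-231, 7 of the 13 were higher and 1 lower in 3D (backgrounds 33.4% and 34.2%), with a median of 0.40. Their TPM sums moved the other way, at 4927, 5434 and 5038 for alpha tubulins in MDA-MB-231 3D against 5691, 6004 and 5631 in MDA-MB-231 2D, on a scale where the median of all genes fell. In the GC-and-length fit 3 of them were higher and 5 lower in MDA-MB-231.

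TUBA1B and TUBB had the highest TPM of their families in all 4 groups. TUBA1B had 1187, 1007 and 1449 CPM in A549 3D, against 2905, 2906 and 2811 CPM in A549 2D (log2 fold change -1.24 ± 0.11, adjusted p = 7.05e-08). TUBA1B had 2720, 2990 and 2811 CPM in MDA-MB-231 3D, against 2453, 2600 and 2416 CPM in MDA-MB-231 2D (log2 fold change 0.19 ± 0.11, adjusted p = 0.124), and in the GC-and-length fit it passed as lower (-0.23, adjusted p = 0.0101). The A549 cultures stood far apart, and those of MDA-MB-231 were apart by less. TUBA1C had 393, 353 and 500.4 CPM in A549 3D, against 894, 890.1 and 868 CPM in A549 2D (log2 fold change -1.08 ± 0.11, adjusted p = 3.09e-07). TUBA1C had 1534, 1769 and 1666 CPM in MDA-MB-231 3D, against 1330, 1363 and 1261 CPM in MDA-MB-231 2D (log2 fold change 0.33 ± 0.11, adjusted p = 0.0113), a rise that was 0.06 in the GC-and-length fit, turned to -0.10 on the log2(TPM + 1) scale and did not pass without MDA-MB-231 3D replicate 2 (0.28, adjusted p = 0.0546). TUBA1A, the isotype of neurons, had 149, 122 and 184 CPM in A549 3D, against 255, 254 and 261 CPM in A549 2D (log2 fold change -0.74 ± 0.11, adjusted p = 2.66e-05). TUBA1A had 159.8, 182 and 178 CPM in MDA-MB-231 3D, against 85.0, 81.2 and 76.6 CPM in MDA-MB-231 2D (log2 fold change 1.10 ± 0.11, adjusted p = 4.47e-07; 0.92 in the GC-and-length fit), so that its cultures were apart in opposite directions in the 2 lines. These 3 genes are near copies, and the split of reads between them is uncertain.

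TUBA4A, the isotype with no encoded C-terminal tyrosine, had 129.6, 101 and 149 CPM in A549 3D, against 279, 290 and 293 CPM in A549 2D (log2 fold change -1.17 ± 0.12, adjusted p = 4.71e-07). TUBA4A had 59.8, 63.2 and 62.5 CPM in MDA-MB-231 3D, against 56.8, 72.3 and 56.4 CPM in MDA-MB-231 2D (log2 fold change 0.00 ± 0.12, adjusted p = 1), and in the GC-and-length fit it passed as lower (-0.47, adjusted p = 6.81e-05). The A549 cultures were apart and the MDA-MB-231 cultures overlapped. TUBAL3, a divergent alpha tubulin, rose in both lines, by 2.83 ± 0.38 in A549 and 1.78 ± 0.45 in MDA-MB-231, and did not exceed 2.51 CPM. TUBA3C, TUBA3D, TUBA3E, TUBA4B and TUBA8 were too low to test, at no more than 0.752 CPM in any library.

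Among beta tubulins, TUBB, the broadly expressed class I isotype, had 759, 564 and 906 CPM in A549 3D, against 1445, 1407 and 1386 CPM in A549 2D (log2 fold change -0.92 ± 0.12, adjusted p = 8.55e-06). TUBB had 4166, 4371 and 4375 CPM in MDA-MB-231 3D, against 3660, 3875 and 3535 CPM in MDA-MB-231 2D (log2 fold change 0.22 ± 0.12, adjusted p = 0.121). TUBB4B had 333, 255 and 355 CPM in A549 3D, against 574, 558 and 590.5 CPM in A549 2D (log2 fold change -0.86 ± 0.10, adjusted p = 2.08e-06). The 3D libraries of both lay below the 2D libraries in A549. In MDA-MB-231, TUBB4B had 985, 954 and 996 CPM in MDA-MB-231 3D, against 667, 721 and 632 CPM in MDA-MB-231 2D (log2 fold change 0.54 ± 0.10, adjusted p = 0.000184). In the GC-and-length fit it passed as lower there (-0.20, adjusted p = 0.00489), and on the log2(TPM + 1) scale the rise did not pass (0.11). TUBB6 had 64.1, 45.7 and 70.5 CPM in A549 3D, against 127, 132 and 130.1 CPM in A549 2D (log2 fold change -1.08 ± 0.11, adjusted p = 6.13e-07). TUBB6 had 319, 339.7 and 347 CPM in MDA-MB-231 3D, against 274, 264 and 249 CPM in MDA-MB-231 2D (log2 fold change 0.35 ± 0.11, adjusted p = 0.00808). In the GC-and-length fit it passed as lower there (-0.26, adjusted p = 0.00156), and it was at -0.03 on the log2(TPM + 1) scale. No 3D library overlapped the 2D range for these genes in either line.

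TUBB3, the class III isotype of neurons that many carcinomas also make, had 55.3, 40.2 and 63.4 CPM in A549 3D, against 231.1, 221 and 221 CPM in A549 2D (log2 fold change -2.05 ± 0.12, adjusted p = 6.13e-10). TUBB3 had 98.4, 93.0 and 99.0 CPM in MDA-MB-231 3D, against 49.2, 45.4 and 43.7 CPM in MDA-MB-231 2D (log2 fold change 1.07 ± 0.11, adjusted p = 6.16e-07; 0.30 in the GC-and-length fit). Its libraries were apart in opposite directions, and the difference between lines was -3.12 ± 0.16 (adjusted p = 7.05e-10). TUBB2B, another isotype of the nervous system, had 4.26, 2.93 and 3.83 CPM in A549 3D, against 18.5, 19.99 and 18.9 CPM in A549 2D (log2 fold change -2.34 ± 0.15, adjusted p = 1.94e-09). TUBB2B had 2.13, 2.83 and 2.52 CPM in MDA-MB-231 3D, against 2.15, 2.12 and 1.48 CPM in MDA-MB-231 2D (log2 fold change 0.40 ± 0.18, adjusted p = 0.0631; -0.05 in the GC-and-length fit). Its near copy TUBB2A had 22.7, 17.4 and 23.2 CPM in A549 3D, against 38.8, 40.5 and 43.3 CPM in A549 2D (log2 fold change -0.92 ± 0.10, adjusted p = 6.63e-07). TUBB2A had 59.6, 61.9 and 58.8 CPM in MDA-MB-231 3D, against 40.8, 41.0 and 38.7 CPM in MDA-MB-231 2D (log2 fold change 0.58 ± 0.09, adjusted p = 2.38e-05; -0.10 in the GC-and-length fit and 0.15, not passed, on the log2(TPM + 1) scale), and the split of reads between TUBB2A and TUBB2B is uncertain. TUBB2B fell more than TUBB2A in A549, and in MDA-MB-231 its cultures overlapped while those of TUBB2A did not. Neuronal markers did not fall with TUBB3 and TUBB2B in A549: 3 of 6 tested were higher and 1 lower (backgrounds 34.1% and 31.5%). Of the 10 markers 2 were at 0 in each culture, and their summed level was 122.5 to 131 CPM in A549 3D against 74.8 to 79.9 CPM in A549 2D. TUBB4A, of brain, had 6.77, 2.15 and 2.25 CPM in A549 3D, against 0.774, 0.478 and 0.787 CPM in A549 2D (log2 fold change 2.39 ± 0.45, adjusted p = 0.000217). TUBB1, the isotype of platelets, fell in both lines, by 0.72 in A549 and 1.81 in MDA-MB-231, and did not exceed 2.29 CPM, and TUBB8, of oocytes, was too low to test.

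The isotype makeup, taken as each gene's share of its family's TPM within a library, is free of the scale of the library. TUBA1B made up 63.7% ± 0.224 in 3D and 66.9% ± 0.310 in 2D of alpha tubulin TPM in A549, and 58.9% ± 0.666 in 3D and 61.8% ± 0.483 in 2D in MDA-MB-231. TUBA1C made up 23.4% ± 0.612 in 3D and 22.1% ± 0.0618 in 2D in A549, and 36.8% ± 0.618 in 3D and 35.1% ± 0.457 in 2D in MDA-MB-231. In both lines the TUBA1B share was thus lower and the TUBA1C share higher in 3D. TUBB made up 49.2% ± 1.66 in 3D and 46.2% ± 0.776 in 2D of beta tubulin TPM in A549, and 63.7% ± 0.673 in 3D and 68.4% ± 0.386 in 2D in MDA-MB-231, and TUBB4B 36.5% ± 1.52 in 3D and 33.1% ± 0.805 in 2D in A549, and 25.6% ± 0.733 in 3D and 22.2% ± 0.408 in 2D in MDA-MB-231. TUBB3 made up 5.43% ± 0.103 in 3D and 11.5% ± 0.195 in 2D in A549, and 2.25% ± 0.0908 in 3D and 1.35% ± 0.0889 in 2D in MDA-MB-231. For these 5 isotypes, each with at least 10% of its family in some group, the 3D and 2D libraries did not overlap in either line. Shares within a family add up to the whole, so they are not separate results. Among isotypes with smaller shares, TUBA1A did not overlap in either line, TUBA4A and TUBB2A overlapped in A549, and TUBB6 overlapped in both lines. How often cultures do not overlap over all genes is not given here. The TUBB4B share was higher in 3D in both lines, whereas the shares of TUBB and of TUBB3 went opposite ways. Shares were not taken with GC and length trends removed. In the GC-and-length fit TUBB4B was at -0.20 and TUBB at 0.08 in MDA-MB-231, against 0.54 and 0.22 as reported. In A549 TUBB4B was at -1.23 and TUBB at -1.08 in that fit, against -0.86 and -0.92. The order of TUBB4B and TUBB thus turned in both lines. The shares of TUBA1A, TUBA1B and TUBA1C carry the uncertainty of their shared reads.

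**Figure D4:**
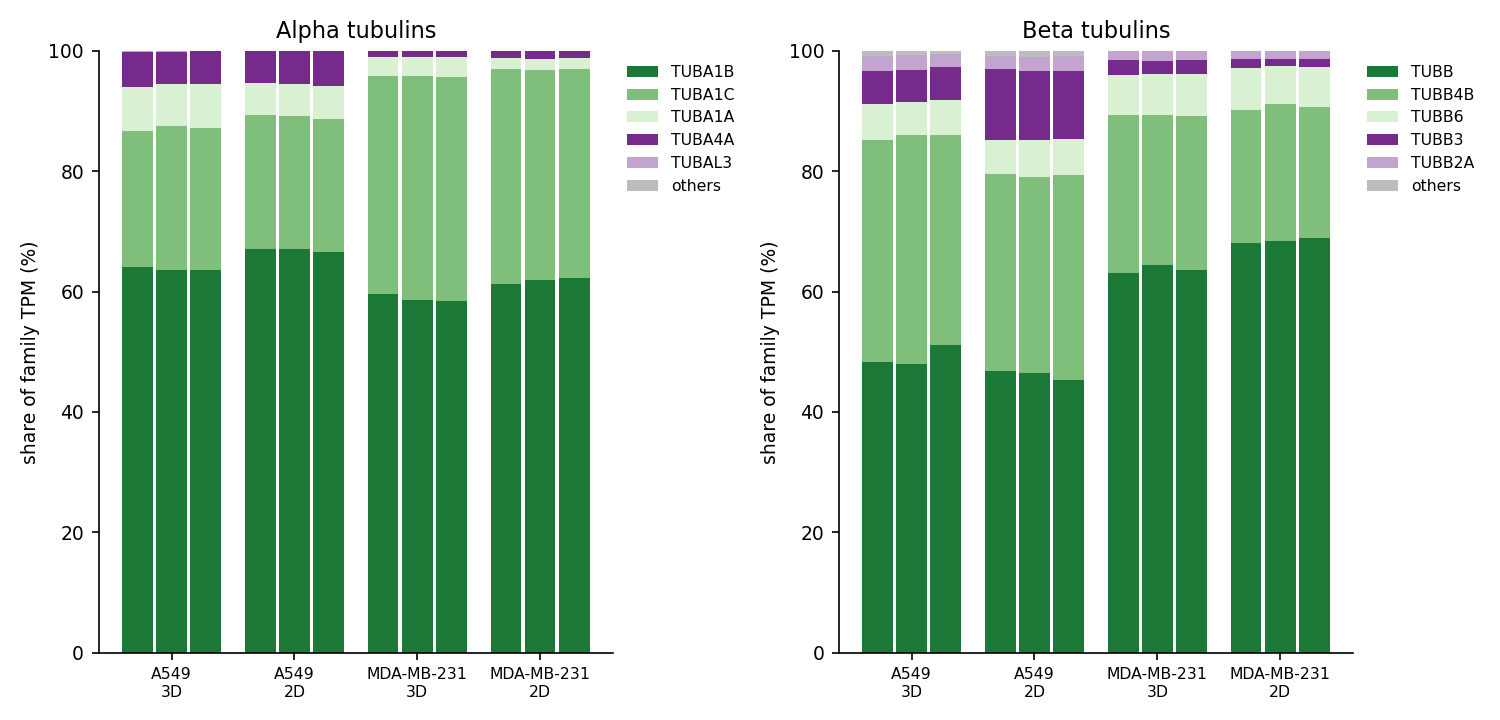
Share of each isotype in the summed TPM of alpha tubulins (left) and beta tubulins (right), in percent, with 1 bar per library and 3 bars each for A549 3D, A549 2D, MDA-MB-231 3D and MDA-MB-231 2D; the 5 isotypes with the largest mean share have a colour and the rest are summed. The TUBB3 band is narrower in A549 3D (5.43%) than in A549 2D (11.5%), and TUBB takes more of the MDA-MB-231 bars than of the A549 bars.

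Neither gene of gamma-tubulin, the template of nucleation, passed as lower in A549 3D, although TUBG1 did in the GC-and-length fit (-0.54). TUBG1, the main gene, had 81.2, 60.2 and 94.8 CPM in A549 3D, against 102, 91.9 and 95.3 CPM in A549 2D (log2 fold change -0.27 ± 0.12, adjusted p = 0.0659). TUBG1 had 251, 257 and 254 CPM in MDA-MB-231 3D, against 183, 197 and 162 CPM in MDA-MB-231 2D (log2 fold change 0.49 ± 0.12, adjusted p = 0.00151), but -0.01 in the GC-and-length fit. TUBG2, its near copy, had 14.0, 11.5 and 13.4 CPM in A549 3D, against 8.13, 7.66 and 7.30 CPM in A549 2D (log2 fold change 0.77 ± 0.13, adjusted p = 0.000103; 0.44 in the GC-and-length fit). TUBG2 had 15.5, 17.0 and 16.2 CPM in MDA-MB-231 3D, against 12.5, 16.8 and 12.6 CPM in MDA-MB-231 2D (log2 fold change 0.22 ± 0.12, adjusted p = 0.103). TUBG1 overlapped between cultures in A549 and TUBG2 in MDA-MB-231, and reads shared between the 2 genes make their split uncertain. The differences between lines were -0.76 ± 0.17 for TUBG1 and 0.55 ± 0.18 for TUBG2 (adjusted p = 0.00128 and 0.0142). On the log2(TPM + 1) scale neither TUBG1 in MDA-MB-231 (0.07) nor TUBG2 in A549 (0.15) passed, nor did the difference between lines for TUBG2 (0.34).

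Augmin subunits fell in A549 except for HAUS4. Of 8 subunits 7 were lower and 1 higher in A549 3D (backgrounds 31.5% and 34.1%), with a median of -1.01. In MDA-MB-231 3D, 4 were lower and 2 higher (backgrounds 34.2% and 33.4%), with a median of -0.22. HAUS6, the subunit that contacts the gamma-tubulin ring complex through NEDD1, had 46.6, 56.3 and 45.2 CPM in A549 3D, against 119.8, 124 and 113 CPM in A549 2D (log2 fold change -1.29 ± 0.09, adjusted p = 7.55e-09). HAUS6 had 30.7, 27.1 and 28.1 CPM in MDA-MB-231 3D, against 88.8, 87.1 and 95.8 CPM in MDA-MB-231 2D (log2 fold change -1.67 ± 0.09, adjusted p = 9.47e-10; -0.49 in the GC-and-length fit). HAUS3 had 7.52, 7.81 and 5.68 CPM in A549 3D, against 17.6, 16.6 and 15.1 CPM in A549 2D (log2 fold change -1.32 ± 0.16, adjusted p = 4.06e-06). HAUS3 had 15.1, 10.2 and 10.1 CPM in MDA-MB-231 3D, against 39.2, 36.4 and 40.4 CPM in MDA-MB-231 2D (log2 fold change -1.74 ± 0.14, adjusted p = 2.71e-08). Both were lower in every 3D library than in any 2D library of the same line. HAUS2 had 22.4, 24.0 and 21.6 CPM in A549 3D, against 54.8, 56.0 and 49.9 CPM in A549 2D (log2 fold change -1.25 ± 0.10, adjusted p = 4.13e-08). HAUS2 had 35.2, 31.8 and 27.4 CPM in MDA-MB-231 3D, against 55.4, 49.0 and 55.4 CPM in MDA-MB-231 2D (log2 fold change -0.76 ± 0.10, adjusted p = 3.68e-06), a fall that was 0.02 in the GC-and-length fit.

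HAUS7 went opposite ways, with 20.1, 15.0 and 19.2 CPM in A549 3D, against 27.1, 25.8 and 26.9 CPM in A549 2D (log2 fold change -0.52 ± 0.11, adjusted p = 0.000423). HAUS7 had 21.5, 19.9 and 18.2 CPM in MDA-MB-231 3D, against 8.78, 9.71 and 8.33 CPM in MDA-MB-231 2D (log2 fold change 1.15 ± 0.11, adjusted p = 1.82e-07). With GC and length trends removed HAUS7 was at -0.95 in A549 and 0.36 in MDA-MB-231, and passed in both. HAUS5 had 13.5, 7.81 and 14.8 CPM in A549 3D, against 28.3, 29.7 and 30.4 CPM in A549 2D (log2 fold change -1.19 ± 0.13, adjusted p = 1.36e-06). HAUS8, the subunit that binds microtubules, had 7.14, 6.84 and 8.28 CPM in A549 3D, against 13.8, 12.8 and 14.2 CPM in A549 2D (log2 fold change -0.82 ± 0.11, adjusted p = 5.48e-06). In MDA-MB-231, HAUS5 had 22.6, 21.3 and 22.9 CPM in MDA-MB-231 3D, against 19.8, 20.5 and 20.2 CPM in MDA-MB-231 2D (log2 fold change 0.14 ± 0.12, adjusted p = 0.322). HAUS8 had 41.7, 45.3 and 46.4 CPM in MDA-MB-231 3D, against 45.7, 44.3 and 43.2 CPM in MDA-MB-231 2D (log2 fold change 0.00 ± 0.08, adjusted p = 0.987). Both passed as lower in MDA-MB-231 in the GC-and-length fit, HAUS5 at -0.24 and HAUS8 at -0.40 (adjusted p = 0.0151 and 2.54e-05). The A549 cultures were apart for HAUS5, HAUS7 and HAUS8, and those of HAUS8 overlapped in MDA-MB-231. HAUS4 was the subunit that rose in both lines, by 0.86 ± 0.07 in A549 and 0.48 ± 0.07 in MDA-MB-231, and HAUS1 fell in both, at -0.31 ± 0.09 and -0.44 ± 0.08. For HAUS4 the values were 0.54 and 0.17 in the GC-and-length fit, where both passed, and for HAUS1 in A549 the value was -0.52. On the TPM scale, where the median of all genes fell, HAUS4 averaged 42.9 ± 3.45 in A549 3D against 35.2 ± 1.52 in A549 2D. In MDA-MB-231 it averaged 60.8 ± 4.22 TPM in 3D against 58.8 ± 1.41 TPM in 2D, a gap within the SD of the 3D libraries. The change of HAUS1 in MDA-MB-231 did not pass in the GC-and-length fit (-0.06, adjusted p = 0.49). Subunits that make up the same complex thus differed in A549 by more than 2 log2 units, the span between HAUS3 at -1.32 and HAUS4 at 0.86.

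The changes in MDA-MB-231 were ordered by the base composition of the transcripts, and those in A549 were not. Over the 53 genes with counts in MDA-MB-231, Pearson's r between transcript GC content and log2 fold change was 0.698, against 0.483 over 14404 genes of all kinds. In A549 it was 0.112 over 57 genes, against 0.0557 over 14642. Genes share their libraries and are not replicates, so these values are descriptions. With a bound at 45% GC chosen after the values were seen, the 14 members below it whose log2 CPM averaged 1 or more were all lower in MDA-MB-231 3D, with a median of -0.95. Of the 34 members at or above it, 16 were higher and 2 lower, with a median of 0.23. Shares of all genes tested on each side of the bound are not given here. These counts are therefore not set apart from the trend over all genes. Without regard to GC content the backgrounds were 33.4% higher and 34.2% lower. In A549 the same groups gave 1 higher and 13 lower below the bound, and 5 higher and 26 lower above it. The part of GC content in the MDA-MB-231 changes was not tested beyond the fit that removes its trend.

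**Figure D5:**
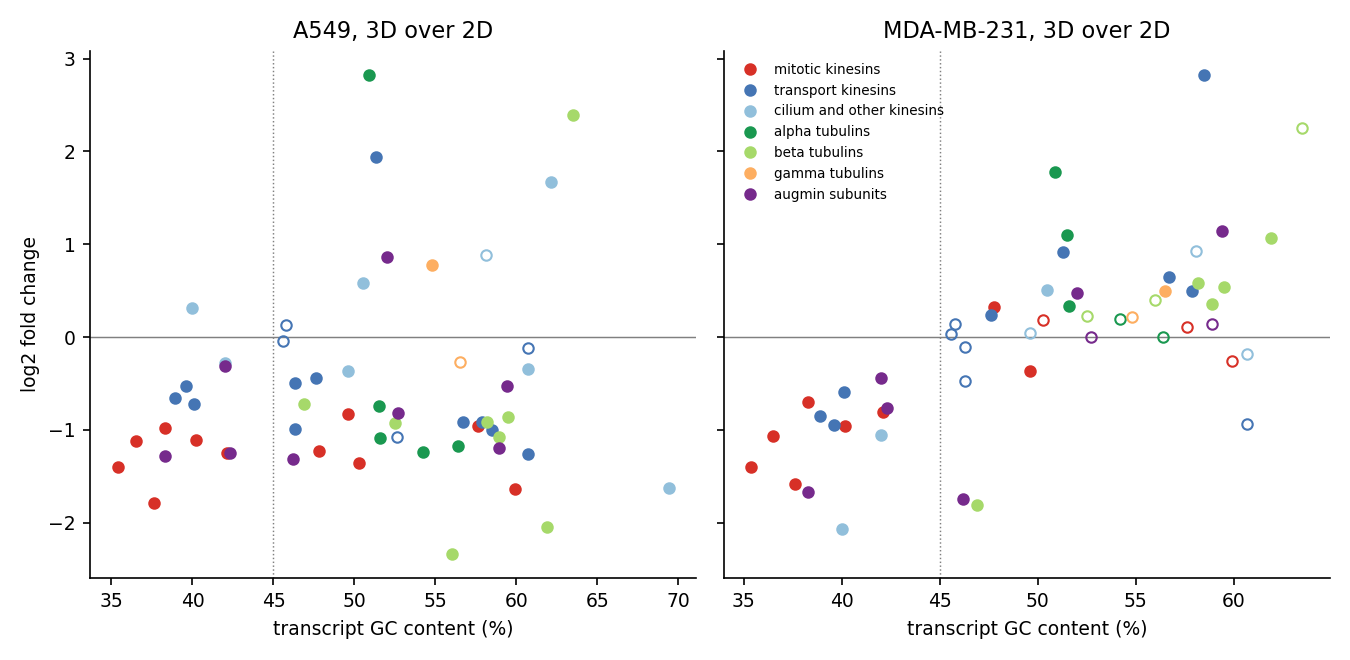
Log2 fold change of 3D over 2D against the mean GC content of each gene's transcripts, in A549 (left) and MDA-MB-231 (right), coloured by role; filled points passed the edgeR test and open points did not, and the dotted line stands at 45%. In MDA-MB-231 the filled points left of the dotted line all lie below 0, and most of those right of it lie above; in A549 most filled points lie below 0 on both sides. With GC and length trends removed, several MDA-MB-231 points cross 0.

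Between the lines, most members differed in each culture. In 3D, 50 of 57 passed for A549 over MDA-MB-231 (background 83.0%), with 20 higher (background 43.9%) and 30 lower (background 39.2%). In 2D, 46 passed (background 81.6%), with 26 higher (background 42.8%) and 20 lower (background 38.8%). Mitotic kinesins were lower in A549 in 10 of 11 genes in 3D and in 7 of 11 in 2D, and transport kinesins higher in A549 in 8 of 15 in 3D and in 13 of 15 in 2D. On the log2(TPM + 1) scale, where the median of all genes was -0.636 in 3D and -0.565 in 2D, 9 members were higher and 41 lower in 3D and 15 higher and 35 lower in 2D, and 4 and 8 transport kinesins were higher. Named after their values were seen, the 6 genes with counts in both lines, at least 4-fold apart in 2D, and an average log2 CPM of at least 1 were all higher in A549. They were TUBB2B (3.31 ± 0.14), KIF21B (2.42 ± 0.18), TUBB3 (2.28 ± 0.11), KIF21A (2.25 ± 0.09), TUBA4A (2.22 ± 0.12) and KIF16B (2.15 ± 0.10). In 3D, KIF21B and TUBB3 were lower in A549, at -1.40 ± 0.18 and -0.84 ± 0.12. KIF26A, KIF1A and KIF5A, at 0 in all MDA-MB-231 libraries, were at least 20.6-fold, 4.63-fold and 6.32-fold higher in A549 in 3D and at least 87.3-fold, 15.5-fold and 19.7-fold in 2D. The lines also differed in the RNA parts of RNase P and RNase MRP, RNAs without a poly(A) tail, at 5.04% to 6.13% of counts in A549 3D against 0.0012% to 0.00214% in MDA-MB-231 3D, and 1.24% to 1.33% in A549 2D against 0.000117% to 0.000118% in MDA-MB-231 2D; how far this library difference moves the members was not tested.

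Other genes of the same machinery were read from lists made beside the members, by count and with the 2 genes of smallest p in each line. Spindle partners of the members followed the mitotic kinesins in A549, with 9 of 13 lower and 2 higher (backgrounds 31.5% and 34.1%) and a median of -0.96. BIRC5, the survivin subunit of the chromosomal passenger complex, averaged 80.2 ± 12.7 CPM in A549 3D, against 202 ± 0.971 CPM in A549 2D (log2 fold change -1.31 ± 0.09, adjusted p = 7.03e-09). AURKA, the kinase of spindle poles, averaged 75.0 ± 12.8 CPM in A549 3D, against 204 ± 7.79 CPM in A549 2D (log2 fold change -1.43 ± 0.10, adjusted p = 7.46e-09). In MDA-MB-231, 3 were higher and 4 lower against backgrounds of 33.4% and 34.2% (4 and 2 in the GC-and-length fit). There CLASP2, which stabilises plus ends, averaged 52.4 ± 2.95 CPM in MDA-MB-231 3D, against 96.5 ± 5.20 CPM in MDA-MB-231 2D (log2 fold change -0.88 ± 0.07, adjusted p = 6.24e-08; -0.03 in the GC-and-length fit). PRC1, the bundler of the midzone, averaged 241 ± 13.7 CPM in MDA-MB-231 3D, against 376 ± 8.29 CPM in MDA-MB-231 2D (log2 fold change -0.64 ± 0.11, adjusted p = 7.61e-05). Both fell as reported, and PRC1 also in the GC-and-length fit, at -0.38.

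Among 14 tested genes of other motors and kinesin adaptors, 5 were higher and 7 lower in A549 (backgrounds 34.1% and 31.5%). In MDA-MB-231, 3 were higher and 4 lower (backgrounds 33.4% and 34.2%). CENPE, the kinetochore kinesin whose name the rule does not catch, averaged 29.1 ± 3.23 CPM in A549 3D, against 92.4 ± 7.65 CPM in A549 2D (log2 fold change -1.69 ± 0.09, adjusted p = 3.94e-10). CENPE averaged 87.0 ± 1.62 CPM in MDA-MB-231 3D, against 252 ± 12.3 CPM in MDA-MB-231 2D (log2 fold change -1.53 ± 0.08, adjusted p = 9.39e-10; -0.09 in the GC-and-length fit). MAPK8IP3, a scaffold that links kinesin to its cargo, averaged 8.61 ± 1.22 CPM in A549 3D, against 27.5 ± 1.82 CPM in A549 2D (log2 fold change -1.64 ± 0.11, adjusted p = 3.88e-09). KLC4, a kinesin light chain, averaged 30.9 ± 0.870 CPM in MDA-MB-231 3D, against 16.8 ± 0.956 CPM in MDA-MB-231 2D (log2 fold change 0.88 ± 0.09, adjusted p = 2.65e-07; 0.38 in the GC-and-length fit).

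Of 13 genes of the gamma-tubulin ring complex and its recruiters, 4 were higher and 5 lower in A549, near the backgrounds of 34.1% and 31.5%. In MDA-MB-231, 3 were higher and 8 lower (backgrounds 33.4% and 34.2%), and 4 and 4 in the GC-and-length fit. NEDD1, the adaptor between that complex and augmin, averaged 51.4 ± 6.99 CPM in A549 3D, against 106 ± 2.92 CPM in A549 2D (log2 fold change -1.06 ± 0.10, adjusted p = 1.3e-07). NEDD1 averaged 28.99 ± 2.75 CPM in MDA-MB-231 3D, against 86.2 ± 4.94 CPM in MDA-MB-231 2D (log2 fold change -1.58 ± 0.10, adjusted p = 2.97e-09), so it fell in both lines, as HAUS6 did, although its value in MDA-MB-231 was -0.60 in the GC-and-length fit. MZT2B, a small subunit with a near copy in MZT2A and therefore uncertain, averaged 114 ± 15.8 CPM in A549 3D, against 57.5 ± 3.41 CPM in A549 2D (log2 fold change 0.98 ± 0.10, adjusted p = 3.32e-07; 0.37 in the GC-and-length fit). TUBGCP2, of the ring complex itself, averaged 180.1 ± 2.54 CPM in MDA-MB-231 3D, against 73.8 ± 5.37 CPM in MDA-MB-231 2D (log2 fold change 1.29 ± 0.08, adjusted p = 2.66e-09). Of the 6 tubulin folding cofactors, 1 was higher and 2 lower in A549, and 4 higher and 1 lower in MDA-MB-231, against the same backgrounds. These counts were 1 and 5 in A549 and 4 and 0 in MDA-MB-231 in the GC-and-length fit. ARL2, the GTPase of the folding complex, rose in both lines and averaged 143 ± 27.7 CPM in A549 3D, against 61.1 ± 2.87 CPM in A549 2D (log2 fold change 1.24 ± 0.11, adjusted p = 9.99e-08). ARL2 averaged 142 ± 3.26 CPM in MDA-MB-231 3D, against 61.1 ± 3.24 CPM in MDA-MB-231 2D (log2 fold change 1.22 ± 0.11, adjusted p = 1.17e-07). With GC and length trends removed ARL2 still passed, at 0.69 in A549 and 0.23 in MDA-MB-231. TBCE averaged 38.5 ± 1.89 CPM in A549 3D, against 51.1 ± 0.871 CPM in A549 2D (log2 fold change -0.40 ± 0.07, adjusted p = 0.000164). TBCB averaged 100.4 ± 6.98 CPM in MDA-MB-231 3D, against 48.1 ± 1.42 CPM in MDA-MB-231 2D (log2 fold change 1.06 ± 0.09, adjusted p = 4.15e-08; 0.16 in the GC-and-length fit).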

How the data were processed

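RNA sequencing of 12 libraries was read from tables with 1 row per gene. Per the labels, libraries were stranded and made from ribosome-depleted total RNA; the submitters' processing notes name RSEM and hg19. Not given in the sources used here are the aligner, the annotation and the strand setting. The deposited tables hold expected counts (estimated reads per gene, which need not be whole), TPM (levels per transcript length, scaled to a fixed total per library, by the authors with RSEM) and, per the file headers, effective lengths, a transcript length less the fragment length. Total expected counts per library were 5609327 to 28171901.

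Expected counts were rounded, filtered with filterByExpr, scaled by TMM (factors 0.809 to 1.13) and tested with edgeR 4.0.16's quasi-likelihood test in 1 fit over all 4 groups, in R 4.3.3, with Benjamini-Hochberg adjustment over 15304 genes and a threshold of 0.05. The scripts were tested on simulated data. Alternatives comprised other scaling (RLE, upper quartile), DESeq2 1.42.0, other filters, limma 3.58.1 on log2(TPM + 1) and log2(TPM + 0.1), fits on 6 libraries, a replicate block, an effective length trend removed, a test against a log2 fold change of 0.5 and leaving out each library. A fit without GC and length trends was added after the data were seen; GC content came from GENCODE transcripts and covered 96.5% of tested genes and all 68 members.

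Replicate numbers were not used to pair the samples, since they are not stated to mark a shared day or batch. Libraries of a group differed beyond sampling noise (chi-square per degree of freedom 2.71 to 163). Floors of 3 counts cover counting error only. Members, roles and lists were chosen with earlier results of these data known. Per-library values are given, for each role and for each of 3 contrasts, for up to 3 called members of largest change with average log2 CPM of at least 1, and for tubulins with at least 10% of their family's TPM. Close copies (TUBA1A, TUBA1B and TUBA1C; TUBA3C, TUBA3D and TUBA3E; TUBB2A and TUBB2B; TUBG1 and TUBG2; KIF4A and KIF4B) are uncertain. Promoter sequences are from RefSeq.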

Additional observations from a re-analysis of the deposited data

Results flagged for a closer look

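For 35 of the 57 tested members the change in A549 (3D over 2D) differed from that in MDA-MB-231. The test was of the difference itself, the interaction term of edgeR's quasi-likelihood fit over all 12 libraries. Of all genes tested, 56.1% passed this test, so the number of members flagged is near that background. Values are the change in A549 minus that in MDA-MB-231 on the log2 scale, and a value below 0 means a lower change in A549.

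Among mitotic kinesins the difference was -1.37 for KIF18B, -0.46 for KIF20A, -1.07 for KIF22, -0.44 for KIF23, -1.54 for KIF2C and -1.55 for KIF4A. Of the transport kinesins, KIF13A was at -0.38, KIF1C at -1.41, KIF21B at -3.82, KIF3B at -0.68 and KIF3C at -1.56, while KIF13B at 1.02 and KIF21A at 0.41 were above 0. For KIF21A the difference turned in the GC-and-length fit and passed below 0 (-0.49, adjusted p = 0.00256). In the group of cilia and other roles KIF24 was at -0.42, KIF27 at 2.38 and KIF2A at 0.78, with KIF2A at 0.11 and not passed in the GC-and-length fit (adjusted p = 0.396).

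Alpha tubulins were at -1.84 (TUBA1A), -1.43 (TUBA1B), -1.41 (TUBA1C) and -1.17 (TUBA4A). Beta tubulins were at -1.15 (TUBB), -1.5 (TUBB2A), -2.74 (TUBB2B), -3.12 (TUBB3), -1.4 (TUBB4B) and -1.43 (TUBB6), with TUBB1 above 0 at 1.09 (0.68, not passed, in the GC-and-length fit). TUBG1 was at -0.76 and TUBG2 at 0.55. The augmin subunits HAUS2, HAUS5, HAUS7 and HAUS8 were at -0.49, -1.34, -1.67 and -0.83, and HAUS4 and HAUS6 at 0.39 and 0.38, a value that for HAUS6 was -0.59 in the GC-and-length fit. KIF21B, TUBB3 and TUBB2B had the widest differences of the 35, all below 0.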

How the results depend on the processing

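Under RLE or upper-quartile scaling, DESeq2 and a filter on CPM, all 90 values recomputed for the named genes kept their direction and call. The replicate block changed 1 call, KIF27 in A549 (adjusted p = 0.0581), and gave 48 members called in A549, 44 and 48 between lines in 2D and 3D, and 35 each in MDA-MB-231 and in the difference between lines. Same-numbered libraries correlated at -0.0729 to 0.0679 over all genes, which shows no common shift. Such values cannot exclude a shared day or batch that moves few genes. Leaving out 1 library gave 47 to 51 members called in A549, 32 to 38 in MDA-MB-231 and 31 to 35 in the difference, 6 to 8 mitotic kinesins lower in MDA-MB-231, and 15 lost calls of 1080, in KIF27 and KIF2A (A549), KIF9 and TUBA1C (MDA-MB-231), and the differences of HAUS6 (0.34 without A549 2D replicate 3, MDA-MB-231 2D replicate 3 or MDA-MB-231 3D replicate 2) and KIF21A (0.38 without MDA-MB-231 3D replicate 3).

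Tested against a log2 fold change of 0.5, 20 members passed in MDA-MB-231 in place of 34. Transport kinesins higher in MDA-MB-231 numbered 5 as reported, 2 on either TPM scale and in that test, 8 with the length trend removed and 9 in the GC-and-length fit, where 3 mitotic kinesins were lower in place of 7. In the GC-and-length fit 10 values turned direction: in MDA-MB-231 HAUS2 (0.022), KIF18A (0.22), KIF20B (0.039), KIF21A (0.11), TUBB2A (-0.10), TUBB4B (-0.20), TUBB6 (-0.26) and TUBG1 (-0.0085), and the differences of HAUS6 (-0.59) and KIF21A (-0.49), which were -0.037 and -0.013 with the length trend removed. On the log2(TPM + 1) and log2(TPM + 0.1) scales KIF27 in A549 was at -0.13 and -0.19, and in MDA-MB-231 KIF4A was at -0.090 and -0.092, TUBB6 at -0.0325 and -0.0326, and TUBA1C at -0.10 on both. The cause was not tested. The shallowest and the deepest library were both of A549 3D, where spread was widest, and 11 of 68 members had too few reads to test.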

Other observations

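Genes that modify or bind microtubules were read from 2 further lists. Of 16 tested enzymes that modify tubulin, 7 were higher and 4 lower in A549 3D (backgrounds 34.1% and 31.5%). That split was 3 and 8 on the log2(TPM + 1) scale. In MDA-MB-231 3D, 6 were higher and 4 lower (backgrounds 33.4% and 34.2%). There the split was 3 and 8 on that scale, and 6 and 2 in the GC-and-length fit. TTLL6, which adds glutamate side chains to tubulin and is known from cilia, had 54.5, 52.2 and 52.4 CPM in A549 3D, against 2.32, 1.28 and 1.63 CPM in A549 2D (log2 fold change 4.93 ± 0.18, edgeR adjusted p = 5.67e-12), the widest change among the 16. In MDA-MB-231 it averaged 0.308 ± 0.15 CPM in 3D and 0.157 ± 0.158 CPM in 2D and did not pass. SIRT2, a deacetylase of alpha-tubulin, rose in both lines, by 0.95 ± 0.11 in A549 and 1.07 ± 0.11 in MDA-MB-231 (edgeR adjusted p = 1.89e-06 and 3.78e-07), with 0.51 in MDA-MB-231 in the GC-and-length fit. VASH1, which removes the C-terminal tyrosine of alpha-tubulin, averaged 7.85 ± 0.583 CPM in MDA-MB-231 3D and 3.71 ± 0.233 CPM in MDA-MB-231 2D (log2 fold change 1.08 ± 0.12), while its change in A549 was -0.84 ± 0.12, and both passed.

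Of 17 tested microtubule-associated proteins, 9 were higher and 4 lower in A549 3D (backgrounds 34.1% and 31.5%). These counts became 4 and 7 on the log2(TPM + 1) scale. In MDA-MB-231 3D, 7 were higher and 3 lower (backgrounds 33.4% and 34.2%). There the counts were 4 and 6 on that scale, and 10 and 0 in the GC-and-length fit. MAPRE3, a tracker of growing ends, averaged 13.7 ± 2.02 CPM in A549 3D and 4.57 ± 0.13 CPM in A549 2D, and 5.61 ± 0.397 CPM in MDA-MB-231 3D and 2.41 ± 0.206 CPM in MDA-MB-231 2D; it passed in both lines (log2 fold changes 1.59 ± 0.13 and 1.23 ± 0.14). MAP2, the protein of dendrites, averaged 8.62 ± 2.76 CPM in A549 3D and 0.841 ± 0.209 CPM in A549 2D (log2 fold change 3.32 ± 0.27), and did not pass in MDA-MB-231 (-0.19, edgeR adjusted p = 0.615). MAP1S rose in MDA-MB-231 by 1.26 ± 0.14 (0.69 in the GC-and-length fit).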
